A study of Mus musculus with 4 samples.

Results

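The RB pocket proteins and the CDK inhibitors that keep them active were followed as 9 genes: Rb1, Rbl1, Rbl2, Cdkn1a, Cdkn1b, Cdkn2a, Cdkn2b, Cdkn2c and Cdkn2d. They were chosen by name, and each was found as 1 row among the 24319 gene names analysed. RNA-seq was compared between 2 normal mouse prostates and 2 prostate tumours of TRAMP mice. The normal prostates came from wild-type F1 males of C57BL/6 and FVB parents, aged 22 weeks. The tumours came from F1 males of the same 2 strains that were heterozygous for an SV40 large T antigen transgene under the rat probasin promoter, which is active in prostate epithelium. Tumours were labelled late stage at 24 weeks, while the treatment protocol gives 24 to 28 weeks. That the tumours came from different mice is not spelled out in the labels, and p-values measure the spread between these libraries. The groups differ in age as well as in genotype, and these cannot be told apart.

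Pocket proteins bind E2F transcription factors and hold back the genes of DNA replication and mitosis. Cyclin D with CDK4 or CDK6, and then cyclin E or A with CDK2, phosphorylate the pocket proteins and release E2F. INK4 proteins (p16, p15, p18 and p19) block CDK4 and CDK6, and CIP/KIP proteins (p21, p27 and p57) block the CDK2 complexes, so both families keep the pocket proteins bound to E2F. SV40 large T antigen binds pocket proteins directly and also binds p53, which lies upstream of p21. The transgene transcript was not analysed here.

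Levels are FPKM (fragments per transcript length and sequencing depth) divided by a median-of-ratios factor for each library. Fold changes are differences of log2(scaled FPKM + 1), tumour minus normal, with the limma standard error (SE) and a Benjamini-Hochberg adjusted p over 13162 genes, called at 0.05. The pseudocount of 1 understates the change of low genes, and folds are those of scaled FPKM + 1, not of the levels printed. Over the 4 libraries the fragments implied by the deposited confidence intervals summed to between 985509 and 1578847. Of all genes tested, 9.85% were called higher and 8.27% lower in the tumours, and the median log2 fold change was 0.07. Libraries of the same tissue did not resemble each other to the same degree. Across the genes tested, which are not independent replicates, the log2 values correlated with r = 0.958 between the normal prostates and 0.764 between the tumours, and tumour 1 lay farther from normal prostate than tumour 2.

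The labelled tissues were checked with marker genes. Pbsn, the endogenous probasin gene, was at 7022 and 6280 in normal prostate, listed at 0 in tumour 1 and at 14.2 in tumour 2. The 6 luminal markers summed to 1669 and 1957 in normal prostate, 21.6 in tumour 1 and 1329 in tumour 2. Among them Krt8, a luminal keratin, was at 178 and 191, then 0.258 and 438, while Spdef, a luminal transcription factor, was at 181 and 225, then 0 in tumour 1 and 11.7 in tumour 2. All 4 basal markers were listed at 0 in tumour 1, where Krt5 was at 24.8 and 16.3 in normal prostate and 2.69 in tumour 2. The 7 neuroendocrine markers summed to 0.408 and 0.914 in normal prostate and to 579 and 815 in the tumours, with Chga at 133 and 396. Summed smooth muscle markers were at 325 and 279 in normal prostate, 1.47 in tumour 1 and 54.1 in tumour 2. The part of this change in tissue make-up in the results below was not tested, and in bulk tissue fewer cells of a type and less RNA per cell cannot be told apart.

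Among the 9 genes, 5 rose in the tumours: Rb1, Cdkn1b, Cdkn2a, Cdkn2c and Cdkn2d. Rbl1 was higher, and Rbl2 and Cdkn1a were lower, without passing the threshold, and Cdkn2b was too low to be tested. Thus 5 of 8 tested genes were called higher beside 9.85% of all genes. By limma 0 of the 8 were called lower, 1 of them (Rbl2) had an unadjusted p under 0.05 in that direction, and voom on implied fragments also called 0 lower. The count called higher was 3 by voom, 3 with a pseudocount of 0.1 and 2 without the filter. Cdkn2a passed the filter on low values through the tumours alone, so a higher tumour value was fixed for it by that filter. The levels in both tumours lay above both normal prostates for 6 of the 8 tested genes, beside 37.7% of all genes, and below them for 1, beside 33.3%, so 7 of 8 did not overlap beside 71.1% of all genes. Without tumour 1 only Cdkn2a was called. Without tumour 2 it was Cdkn1b, Cdkn2a and Cdkn2d. Without either normal prostate limma called 0 genes of 13162, with 1204 higher and 958 lower at an unadjusted p under 0.05 without normal 1, and 1248 and 928 without normal 2.

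**Figure D1:**
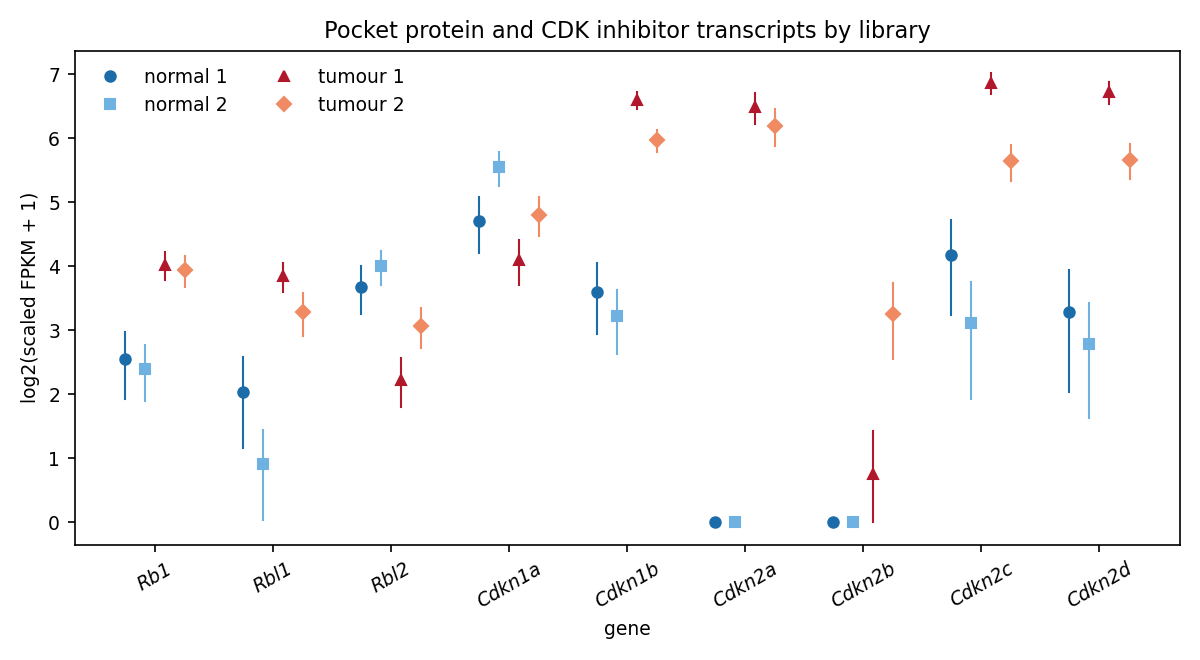
Levels of the 9 genes in each library, as log2(scaled FPKM + 1) on the vertical axis, with 1 symbol per library and a line for the interval deposited with each value, which covers the uncertainty of that library's estimate only. Both tumours sit above both normal prostates for Rb1, Rbl1, Cdkn1b, Cdkn2a, Cdkn2b, Cdkn2c and Cdkn2d, below them for Rbl2, and the groups overlap for Cdkn1a.

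**Figure D2:**
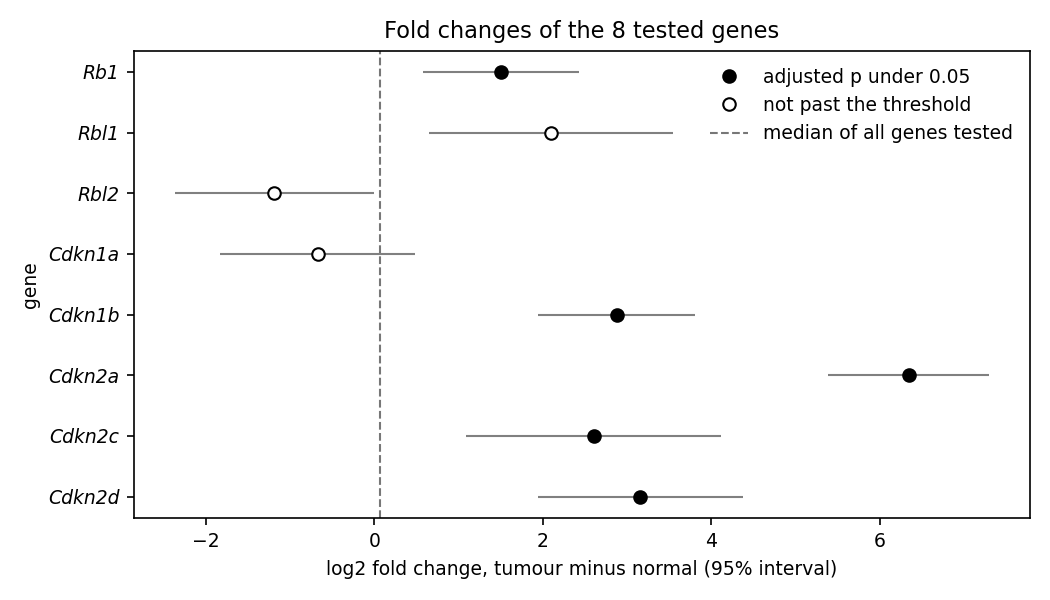
Log2 fold change, tumour minus normal, of the 8 tested genes with 95% limma intervals on the horizontal axis. Filled points passed an adjusted p of 0.05 and the dashed line is the median of all genes tested, 0.07. Cdkn2a lies at 6.34, and Rbl2 and Cdkn1a lie below the line.

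Rb1, which encodes the retinoblastoma protein (chromosome 14, bases 73195502 through 73325791), was at 4.84 and 4.28 in normal prostate, compared with 15.2 and 14.3 in tumours. The groups did not overlap and each pair was close. The log2 fold change was 1.50 (SE 0.36, adjusted p = 0.0498), or 2.84-fold, at 1.55 in tumour 1 and 1.46 in tumour 2 against the normal mean. The call sits at the threshold and was lost under quantile normalization (1.40), with a pseudocount of 0.1 (1.68) and without the filter on low values. Lpar6, a lysophosphatidic acid receptor gene within the Rb1 locus on the opposite strand, had 9.45 and 5.56 in normal prostate, 0 in tumour 1 and 3.003 in tumour 2 (log2 change -2.05 with SE 0.78, adjusted p = 0.123). In GENCODE M21 the 2 genes share 408 exonic bases, and the sources used here do not say whether reads were counted by strand.

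Rbl1 encodes p107, a pocket protein that pairs mainly with the repressive E2F4 and E2F5 and is itself a known E2F target. Its level (chromosome 2, bases 157145894 through 157204534) was 3.10 and 0.871 in normal prostate, compared with 13.3 and 8.77 in tumours. The normal values rested on 11 and 4.2 implied fragments, against 135.9 and 62.6 in the tumours, so the normal pair is the poorly measured side. The log2 fold change of 2.095 (SE 0.56) did not pass (adjusted p = 0.0612), but passed with FPKM as deposited (2.80, adjusted p = 0.0278) and with FPKM scaled to the library sum without genes above 1% (2.60, adjusted p = 0.0379).

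Rbl2 encodes p130, the pocket protein of resting cells and of the DREAM complex, which represses cell cycle genes in quiescence. Its level (chromosome 8, bases 91070057 through 91123844) was 11.8 and 14.96 in normal prostate, compared with 3.69 and 7.41 in tumours, and the groups did not overlap. The log2 fold change of -1.18 (SE 0.46, 95% interval -2.37 to -0.0016) did not pass (adjusted p = 0.125). With FPKM as deposited it was -0.35, while the median of all genes was then 0.86. Its 3' end overlaps Aktip, a vesicle trafficking gene on the opposite strand with which it shares 693 exonic bases. Aktip, at 61.2 and 58.9 in normal prostate, fell to 14.9 and 14.5 (log2 change -1.96 with SE 0.27, adjusted p = 0.0225). The part of reads shared between these 2 genes was not tested.

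Within a library the relative levels of the pocket proteins do not depend on the scaling between libraries. Rbl2 made up 59.7% and 74.4% of the FPKM of the 3 pocket protein genes in normal prostate, and 11.4% and 24.3% in the tumours. Rb1 went from 24.6% and 21.3% to 47.2% and 46.9%, and Rbl1 from 15.7% and 4.33% to 41.3% and 28.8%. The ratio of Rb1 to Rbl2 was 0.412 and 0.286 in normal prostate and 4.13 and 1.93 in the tumours. Rbl2 was the leading transcript of the family in both normal prostates and Rb1 in both tumours. The ratios were not tested. Their summed scaled FPKM was 19.7 and 20.1 in normal prostate and 32.2 and 30.5 in the tumours.

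**Figure D3:**
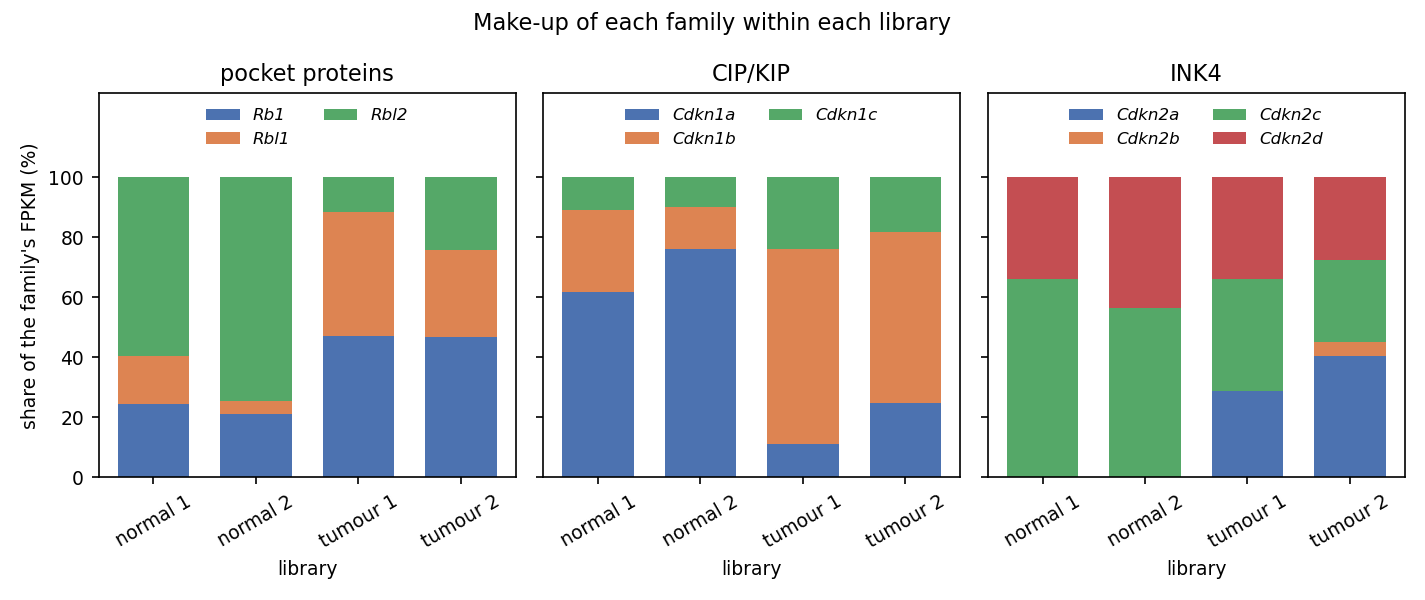
Share of each family's FPKM held by each gene, in percent, with 1 bar per library and families in separate panels; Cdkn1c, outside the 9 genes, completes the CIP/KIP family. Rbl2 holds 59.7% and 74.4% of the pocket protein FPKM in normal prostate, against 11.4% and 24.3% in tumours. Cdkn1a leads the CIP/KIP family in normal prostate and Cdkn1b in the tumours. Cdkn2a, whose value joins p16 with ARF, a protein described below, is listed at 0 in normal prostate.

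Of the INK4 genes, Cdkn2a showed the widest separation. The locus (chromosome 4, bases 89274473 through 89294619, minus strand) has a pair of start sites. The upstream one gives the ARF protein p19, which blocks MDM2 and so protects p53, and the downstream one gives p16, which blocks CDK4 and CDK6. The deposited gene value sums both start groups, so p16 and ARF cannot be told apart here. The 250 bases upstream of both starts are shown because the value joins 2 promoters, with matches to the E2F words described below in capitals (RefSeq, GRCm38.p6, chr4:89294620-89294869 and chr4:89282193-89282442, both on the minus strand, 5' to 3').
Cdkn2a upstream start: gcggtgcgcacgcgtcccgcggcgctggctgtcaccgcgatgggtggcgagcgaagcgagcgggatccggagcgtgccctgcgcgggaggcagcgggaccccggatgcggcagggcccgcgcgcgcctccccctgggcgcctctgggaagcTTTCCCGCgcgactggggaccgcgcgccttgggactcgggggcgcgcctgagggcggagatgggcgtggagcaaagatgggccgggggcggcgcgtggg
Cdkn2a downstream start: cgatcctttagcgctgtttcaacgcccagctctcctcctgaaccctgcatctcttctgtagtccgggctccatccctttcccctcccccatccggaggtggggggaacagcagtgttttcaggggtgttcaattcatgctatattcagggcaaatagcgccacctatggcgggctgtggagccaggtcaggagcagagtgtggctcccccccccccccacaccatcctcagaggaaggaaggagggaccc

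Cdkn2a stood at 0 in each normal library and at 88.7 and 72.4 in tumours, on 142.3 and 96.8 implied fragments. The deposited status flagged no value as failed in any library. A listed 0 does not show that the transcript was absent, and no fold against normal prostate is given. It was called (adjusted p = 0.0183), also under all 7 alternatives that kept the 4 libraries. On the log2(scaled FPKM + 1) scale the tumours lay 6.34 above the normal prostates (SE 0.37). That distance grew to 9.65 with a pseudocount of 0.1, since it is set by the pseudocount when a group is at 0.

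Cdkn2b encodes p15 and lies 11669 bases from Cdkn2a on the same strand (chromosome 4, bases 89306289 through 89311032). It was also listed at 0 in both normal prostates, but lay at only 0.694 in tumour 1, on 2.0 implied fragments, and at 8.57 in tumour 2, on 21. The deposited FPKM interval ran from 0 to 2.25 in tumour 1 and from 7.26 to 18.5 in tumour 2. It reached an FPKM of 1 in 1 library and was not tested. In the same library, tumour 2, the fibroblast markers summed to 264 against 34.0 in tumour 1, and the macrophage markers to 163 against 40.5. Luminal (1329 against 21.6), basal (24.6 against 0), smooth muscle (54.1 against 1.47) and endothelial markers (19.8 against 0.830) were also higher there. So were prostate secretion (2789 against 25.4), neuroendocrine (815 against 579) and B and plasma cell markers (6.14 against 0.652). T and NK cell markers summed to 0.516 against 0. Within the fibroblast list Pdgfra went the other way, at 8.39 in tumour 1 and 2.68 in tumour 2. The part of any of these cell types in the Cdkn2b value was not tested.

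Cdkn2c and Cdkn2d encode p18 and p19 (INK4d), the INK4 proteins that many cell types express during normal development and growth. Cdkn2c (chromosome 4, bases 109660876 through 109666756) was at 16.99 and 7.67 in normal prostate, compared with 115 and 48.9 in tumours. It rose 6.09-fold (log2 change 2.61 with SE 0.58, adjusted p = 0.0446). The members of each pair differed by more than 2-fold, and the call did not hold by voom (3.11), without the trend, with a pseudocount of 0.1 (2.70) and without the filter. Cdkn2d (chromosome 9, bases 21288464 through 21291209) was at 8.72 and 5.90 in normal prostate, compared with 104 and 49.6 in tumours, a rise of 8.92-fold (log2 change 3.16 with SE 0.47, adjusted p = 0.0248). The call of Cdkn2d was lost by voom (3.34, adjusted p = 0.0538) and without the filter (adjusted p = 0.0518). The normal values of Cdkn2d rested on 9.6 implied fragments in each library, and those of Cdkn2c on 15.8 and 9.9.

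Summed over the 4 INK4 genes, scaled FPKM was 25.7 and 13.6 in normal prostate and 309 and 179 in the tumours. The Cdkn2a part of these sums and shares joins p16 with ARF, which is not an INK4 protein. Cdkn2c held 66.1% and 56.5% of the family's FPKM in normal prostate and Cdkn2d the rest. In the tumours Cdkn2a, Cdkn2c and Cdkn2d held 28.7%, 37.3% and 33.8% in tumour 1 and 40.3%, 27.2% and 27.6% in tumour 2. The ratio of Cdkn2d to Cdkn2c was 0.513 and 0.770 in normal prostate and 0.907 and 1.015 in the tumours, a narrow range beside that of their levels.

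Of the CIP/KIP genes, Cdkn1b, which encodes p27 (chromosome 6, bases 134920401 through 134925525), was at 11.1 and 8.30 in normal prostate, compared with 95.7 and 61.7 in tumours. It rose 7.35-fold (log2 change 2.88 with SE 0.36, adjusted p = 0.0210), with 502.1 and 273.6 implied fragments in the tumours against 25.2 and 29 in the normal prostates. The call was kept under all 7 alternatives with the 4 libraries, and was lost without tumour 1 (2.56, adjusted p = 0.0639) and without either normal prostate.

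Cdkn1a, which encodes p21, the best known transcriptional target of p53 (chromosome 17, bases 29090986 through 29100722), was at 25.1 and 45.8 in normal prostate, compared with 16.2 and 26.99 in tumours. The groups overlapped, since tumour 2 lay above normal 1. The log2 fold change of -0.67 (SE 0.45, 95% interval -1.83 to 0.49) did not pass (adjusted p = 0.311). It turned to 0.24 with FPKM as deposited, where the median of all genes was 0.86. With the scaling used here, a tumour level above normal by more than 0.49 lies outside the interval. The interval does not cover the choice of scaling. That of Cdkn1b with the same scaling runs from 1.94 to 3.81.

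Cdkn1c, which encodes p57 and is an imprinted CIP/KIP gene outside the 9, was at 4.38 and 5.92 in normal prostate and rose to 35.1 and 19.7 (log2 change 2.16 with SE 0.43, adjusted p = 0.0368), a call lost by voom (2.43) and without the filter. Within the CIP/KIP family Cdkn1a held 61.9% and 76.3% of the FPKM in normal prostate and 11.02% and 24.9% in the tumours. Cdkn1b held 27.3% and 13.8% against 65.1% and 56.9%. The ratio of Cdkn1b to Cdkn1a was 0.442 and 0.181 in normal prostate and 5.91 and 2.29 in the tumours.

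In the order of levels, Cdkn1a was the highest of the 9 in both normal prostates. In the tumours Cdkn2a, Cdkn1b, Cdkn2c and Cdkn2d formed an upper group, at 88.7 to 115 in tumour 1 and 48.9 to 72.4 in tumour 2. The order within that group differed between the tumours, with Cdkn2c highest in tumour 1 and Cdkn2a in tumour 2. Differences among these 4 were not tested. Cdkn1a, Rb1 and Rbl1 followed in both tumours, at 16.2, 15.2 and 13.3 in tumour 1 and at 26.99, 14.3 and 8.77 in tumour 2. Cdkn2b and Rbl2 were the lowest in both, in opposite order.

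Promoter sequences were found in RefSeq for 8 of the 9 genes, at 11 start sites, and searched over 250 bases before to 50 after the start on both strands. The E2F words were TTTCCCGC, TTTCGCGC, TTTGCCGC and TTTGGCGC. The cell cycle homology region word was TTTGAA, and the p53 response element decamer was searched by its consensus. An E2F word occurred at 2 of the 11 starts, at the Rbl1 start and the upstream Cdkn2a start, 18 and 99 bases before them, and in 2.26% of all 32851 promoter windows. The word TTTGAA was found for Rbl2 and Cdkn2b, and in 17.89% of all windows. A p53 decamer was found at the upstream Cdkn1a start, with 2 matches, and at Cdkn2d, and in 8.36% of all windows. Rbl1 and Cdkn1a are shown because each carries the word of the factor it is best known to respond to, with all matches in capitals (RefSeq, GRCm38.p6, chr2:157204535-157204784 on the minus strand and chr17:29090729-29090978 on the plus strand, 5' to 3', 250 bases upstream of the start).
Rbl1: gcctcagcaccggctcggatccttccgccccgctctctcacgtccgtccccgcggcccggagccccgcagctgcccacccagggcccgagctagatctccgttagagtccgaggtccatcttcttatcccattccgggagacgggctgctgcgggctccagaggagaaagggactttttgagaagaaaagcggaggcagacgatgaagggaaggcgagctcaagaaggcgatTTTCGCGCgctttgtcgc
Cdkn1a upstream start: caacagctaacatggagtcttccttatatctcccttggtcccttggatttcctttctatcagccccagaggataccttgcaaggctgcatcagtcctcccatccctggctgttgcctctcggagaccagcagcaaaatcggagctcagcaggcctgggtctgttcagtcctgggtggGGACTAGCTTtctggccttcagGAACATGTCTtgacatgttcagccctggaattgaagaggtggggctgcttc

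A match is a description of the letters and not of a bound site. No word was found for Cdkn1b, Cdkn2c or the downstream starts of Cdkn1a and Cdkn2a in these windows.

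Genes around the pocket proteins were counted in 5 lists, to be read beside the 9.85% of all genes called higher and the 8.27% called lower. Among 10 E2F and DP factors, 4 rose, 0 fell and 6 did not pass, with a median log2 fold change of 1.30 beside 0.07 for all genes. By limma 1 (E2f4) was lower at an unadjusted p under 0.05, and voom called 2 higher and 0 lower. E2f8, an atypical repressor, was at 0 in each normal library and at 27.5 and 10.03 in tumours (adjusted p = 0.0230). E2f2, an activator, rose to 31.3 and 12.2, or 8.37-fold (log2 change 3.07 with SE 0.59, adjusted p = 0.0349). E2f1, the activator bound by RB, was at 4.11 and 6.07 in normal prostate and rose 5.22-fold, to 43.0 and 21.3 (2.38 with SE 0.47, adjusted p = 0.0366). The calls of E2f1 and E2f2 were lost by voom, and those of all 3 without the filter. E2f7 and E2f8 reached the filter on low values in the tumours alone, so for 2 of the 4 a higher tumour value was fixed by that filter. E2f7, named after its value was seen, was listed at 0 in normal prostate and lay at 3.84 and 1.94. E2f4, the partner of p107 and p130, was at 22.1 and 15.1 in normal prostate, compared with 5.77 and 6.79 in tumours (-1.41 with SE 0.38, adjusted p = 0.0614).

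Among 11 cyclins and CDKs of G1 and S phase, 3 rose, 2 fell and 6 did not pass (median 1.31). Those that rose work late in the sequence. Ccna2, which encodes cyclin A2 of S phase, was at 1.07 and 0.966 in normal prostate, on 2.2 and 3.2 implied fragments. It rose to 130 and 46.8 in tumours (log2 change 5.30 with SE 0.57, adjusted p = 0.0195), a change of 6.13 with a pseudocount of 0.1. Ccna1 was listed at 0 in normal prostate and lay at 5.91 and 3.56. Ccne2, a cyclin E gene, rose 5.25-fold (2.39 with SE 0.47, adjusted p = 0.0358), a call lost under quantile normalization and without the filter. Ccna1 and Ccna2 passed the filter through the tumours alone, so the same limit holds for 2 of these 3. Those that fell encode D cyclins, which start the sequence. Ccnd3 was at 103 and 134 in normal prostate, 9.53 and 14.1 in tumours, and fell by 3.23 (SE 0.33, adjusted p = 0.0195). Ccnd2 fell by 1.90 (SE 0.40, adjusted p = 0.0409), while FPKM as deposited gave -1.37 and no call, nor was it called on the trimmed FPKM sum, with a pseudocount of 0.1 or with no filter. Ccne2 and Ccnd2 were named after their values were seen. Ccnd1 was at 22.7 and 18.1 in normal prostate, compared with 0.920 and 5.55 in tumours (adjusted p = 0.0597). Cdk4, a target of all INK4 proteins, was at 48.0 and 48.5 against 178 and 81.6 (adjusted p = 0.0923), and Cdk6 at 0.411 and 0.556 against 12.1 and 2.79 (adjusted p = 0.0803). Both passed with FPKM as deposited. Cdk6 also passed the filter through the tumours alone, so a higher tumour value was fixed for it.

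Of 28 E2F and DREAM target genes 26 rose, 0 fell and 2 did not pass (Tyms and Orc1), beside 9.85% of all genes called higher. All 28 had levels in both tumours above both normal prostates, beside 37.7% of all genes. Of the 28, 8 passed the filter through the tumours alone, 7 of them among those that rose. At an unadjusted p under 0.05 limma gave 28 higher and 0 lower, and voom called 22 and 0. The median log2 fold change was 3.95. Birc5, Top2a and Cdc20, genes of mitosis, had the largest log2 changes with a pseudocount of 1, an order that changes with the pseudocount for Top2a and Cdc20. Mki67, the proliferation marker, rose 26.7-fold (log2 change 4.74 with SE 0.56, adjusted p = 0.0204). Among these, 4 genes were listed at 0 in normal 1 and 5 in normal 2. The inhibitor genes Cdkn1b, Cdkn2a, Cdkn2c and Cdkn2d were also higher in the tumours, which their choice as called genes had fixed. Their changes ran from 2.61 to 6.34, where the 6.34 of Cdkn2a is set by the pseudocount, and that of Cdkn1a was -0.67.

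**Figure D4:**
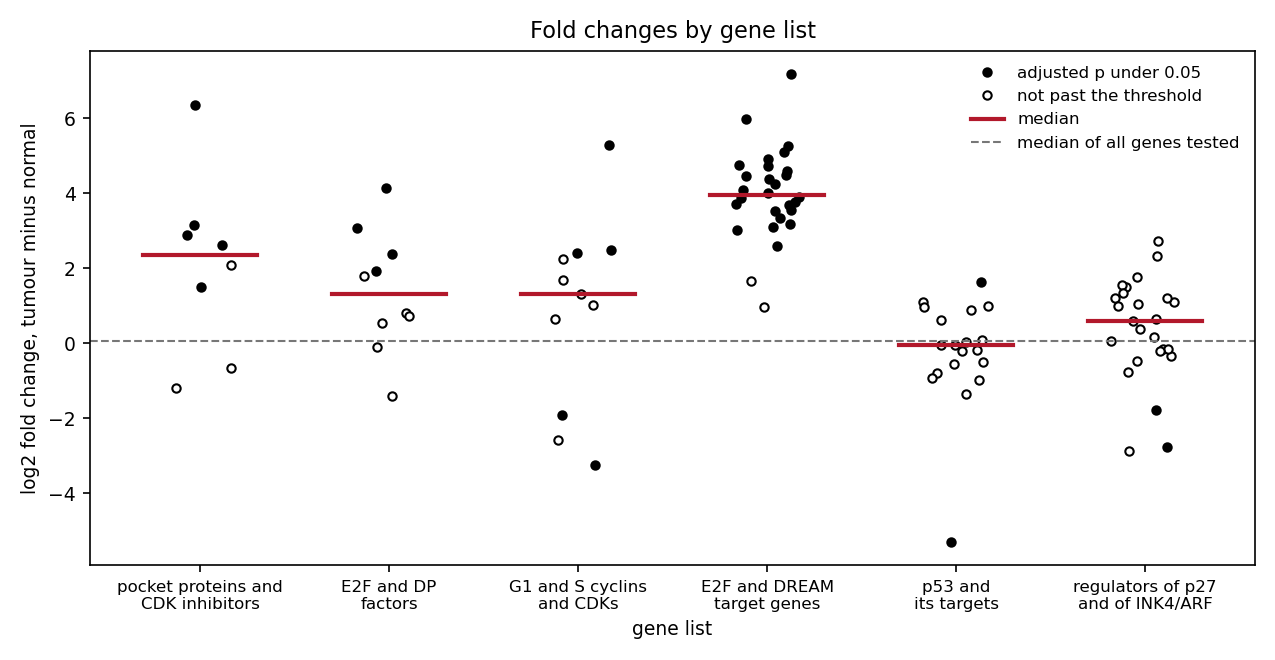
Log2 fold change, tumour minus normal, of each tested gene in the 9-gene set and in 5 lists of genes around it, with filled points past an adjusted p of 0.05, a bar at each list's median and a dashed line at the median of all genes tested. The E2F and DREAM targets have a median of 3.95 and p53 with its targets -0.05. The pocket proteins and inhibitors lie between them at 2.35.

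Among p53 and its targets, below called p53 targets, 1 of 19 tested rose, 1 fell and 17 did not pass, with a median of -0.05. Trp53, which encodes p53, was at 14.2 and 9.12 in normal prostate and rose 3.11-fold, to 42.5 and 33.3 (log2 change 1.64 with SE 0.36, adjusted p = 0.0439), a call that voom, a fit with no trend and a fit with no filter did not make. Mdm2, which encodes the ligase that degrades p53, was at 17.9 and 15.4 against 18.6 and 16.9 (0.09 with SE 0.31, adjusted p = 0.841). Perp, a desmosomal target, fell by 5.28 (SE 1.18, adjusted p = 0.0446). Voom also called it, while 6 of the 7 alternatives did not.

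Among 25 regulators of p27 and of the INK4/ARF locus, 0 rose, 2 fell and 23 did not pass (median 0.60). At an unadjusted p under 0.05 limma gave 7 higher, while voom called 0 higher. Ring1, a Polycomb subunit, fell by 2.78 (SE 0.53, adjusted p = 0.0347), while FPKM as deposited gave -1.93 and no call, nor was it called with no filter. Myc, which activates cell cycle entry, fell by 1.77 (SE 0.42, adjusted p = 0.0495), a call lost under 6 of the 7 alternatives. Skp2, the receptor that marks p27 protein for degradation, was at 0.317 and 0.429 against 10.4 and 3.14 (adjusted p = 0.0576). Ezh2, the Polycomb methyltransferase, was at 6.49 and 1.81 against 43.2 and 19.5 (adjusted p = 0.0526), and Bmi1, a Polycomb repressor of Cdkn2a, at 10.7 and 11.2 against 42.8 and 16.4 (adjusted p = 0.154). Skp2, Ezh2 and Bmi1 passed with FPKM as deposited. For all 3 the groups did not overlap, with the tumours higher. That held for 13 of the 25 regulators, beside 37.7% of all genes. For 6 regulators the groups did not overlap with the tumours lower, beside 33.3%. Cdkn1b and Cdkn2a differ between the same groups, and a link between them and these regulators was not tested. Skp2, like Cdkn2a, passed the filter on low values through the tumours alone, so a higher tumour value was fixed for both.

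The tested genes nearest to the 3 members with the largest called changes were found by Euclidean distance of the log2 values over the 4 libraries. Nearest to Cdkn2a were Ly6h (distance 0.46), Mir1291 and Eef1a2, each listed at or near 0 in normal prostate. Mir1291 rested on 0.5 implied fragments in each tumour and is no measured level. Nearest to Cdkn2d were Mcm7 (0.44), a subunit of the replicative helicase, Pfn2 and Cdkn1b (0.63). Nearest to Cdkn1b were Acot7 (0.33), Klhdc2 and Cdkn2d, so Cdkn1b and Cdkn2d were among each other's 3 nearest genes. With 4 libraries this is a description only.

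**Figure D5:**
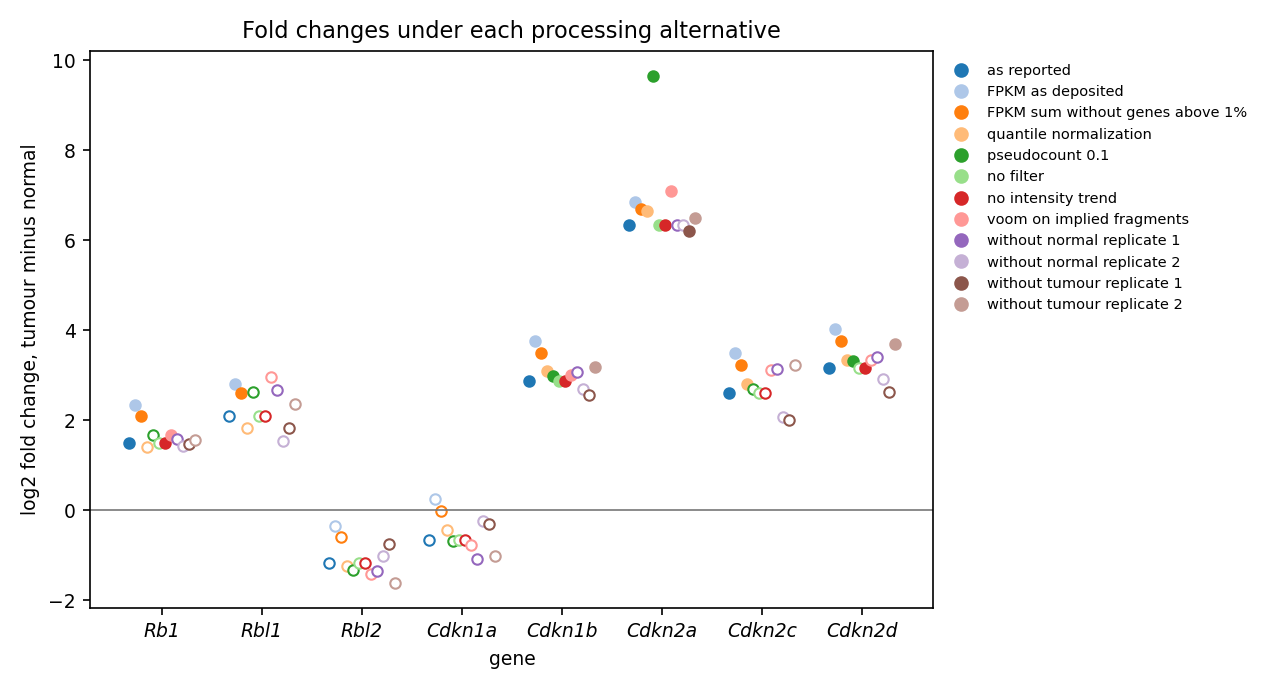
Log2 fold change of each tested gene as reported and under 11 alternatives, filled where the adjusted p is under 0.05. Cdkn2a lies at 6.20 or above in all of them, Rbl2 lies below 0 in all of them without a call, and Cdkn1a crosses 0 with FPKM as deposited.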

How the data were processed

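Per the labels' protocols, total RNA of flash-frozen, dissected prostates and tumours was extracted with TRI Reagent and made into TruSeq libraries for an Illumina NextSeq instrument. The authors deposited 1 table per library with an FPKM value and its interval for each gene. Per the submitters' processing notes, the tools were Cufflinks 2.1.1, Cuffdiff 2.1.1, TopHat2 2.0.8 and Trim Galore, on GRCm38 (mm10). The sources used here give no annotation, strand or library scaling. No counts were analysed. The fragments behind a value were implied from its interval, taken as 2 Poisson standard deviations a side. This was checked on genes with 1 start group and 0.9 to 20 implied fragments. Between 71.0% and 72.5% of these values lay 0.1 or less from whole, where chance gives 20%. Cdkn1a, Cdkn2a and Cdkn2c have 2 start groups, so the check does not cover them. Nor does it cover values above 20 implied fragments, among them those of Rb1, Rbl2 and Cdkn1b in every library. Implied fragments cover counting error only.

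Rows with names turned into dates (27) were left out and repeated names summed. FPKM were divided by median-of-ratios factors over 11469 genes (0.793 and 0.689 in normal prostate, 1.34 and 1.50 in tumours), which shifts log2 values by 0.94 between groups. Genes with FPKM of at least 1 in at least 2 libraries were tested with limma 3.58.1 (R 4.3.3, intensity trend, two-sided). The fit had 2 residual and 2.85 prior degrees of freedom. It was checked on simulated data in which every library had the spread of the normal pair. That check does not cover the wider spread between the tumours. P-values measure the spread between these libraries. Positions are on GRCm38, with starts raised by 1 to count from 1. Members and lists were chosen with earlier results of these data known. Genes were named by rule: the 9 members, Cdkn1c, overlapping genes, up to 3 called genes per list (the smallest p where fewer passed), 11 fixed pathway genes, 4 markers and the nearest genes. Tables and plots used matplotlib 3.10.9, numpy 2.4.6 and pandas 2.3.3 in Python 3.11.15. Alternatives changed the scaling, pseudocount, filter, trend or tool, or left out 1 library with the same genes and factors.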

Additional observations from a re-analysis of the deposited data

How the results depend on the processing

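Depth limits Rbl1, Cdkn2b, Cdkn2c and Cdkn2d in the libraries where few fragments stand behind them. A group with 1 library left is assumed to vary like the other. No paired analysis was possible because the labels give the groups no shared replicate numbers. Of the 8 tested members, Cdkn1b and Cdkn2a kept their call in every alternative with 4 libraries. Cdkn1a reversed to 0.24 with FPKM as deposited. The call of Rb1 was lost under quantile normalization (1.40), with a pseudocount of 0.1 (1.68) and without the filter (1.50). That of Cdkn2c was lost with a pseudocount of 0.1 (2.70), without the filter (2.61), without the trend (2.61) and by voom (3.11). That of Cdkn2d was lost without the filter (3.16) and by voom (3.34). Rbl1 passed with FPKM as deposited (2.80) and with the trimmed FPKM sum (2.60). Where the filter was dropped, 17072 genes were tested; otherwise the cause was not tested.

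With 1 library left out, log2 fold changes ranged from 1.43 to 1.58 for Rb1, 1.53 to 2.66 for Rbl1, -1.61 to -0.76 for Rbl2, -1.09 to -0.25 for Cdkn1a, 2.56 to 3.19 for Cdkn1b, 6.20 to 6.49 for Cdkn2a, 2.00 to 3.22 for Cdkn2c and 2.63 to 3.69 for Cdkn2d. Members called higher ranged from 0 to 3, and lower from 0 to 0. All genes called higher ranged from 0 to 1852 and lower from 0 to 1923. The counts higher ranged from 0 to 5 for E2F and DP factors, 0 to 5 for cyclins and CDKs, 0 to 16 for E2F and DREAM targets, 0 to 1 for p53 targets and 0 to 4 for the regulators of p27 and INK4/ARF. The counts lower ranged from 0 to 3 for cyclins and CDKs, 0 to 2 for p53 targets and 0 to 3 for the regulators. The low end of each range of counts was reached without either normal prostate. For p53 targets higher, and for cyclins, CDKs and regulators lower, it was also reached without tumour 1.

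Members called higher numbered 3 with a pseudocount of 0.1, 2 without the filter and 3 by voom, against 5. On deposited FPKM 3681 genes were called higher and 427 lower, and 2537 and 554 with the trimmed FPKM sum, and 245 and 249 without the filter, against 1296 and 1088 as reported. E2F and DP factors called higher were 0 without the filter and 2 by voom. Cyclins and CDKs called higher were 6 on deposited FPKM and 1 with no filter, and lower 1 with FPKM as deposited, the trimmed sum, a pseudocount of 0.1 and no filter. E2F and DREAM targets called higher were 15 without the filter. In the list of p53 and its targets, the 1 gene called higher as reported was Trp53 itself. The count higher there was 0 without the filter, without the trend and by voom. The count lower was 0 in every alternative with 4 libraries except voom (1). Regulators called higher were 11 with FPKM as deposited and 7 with the trimmed sum, and lower 0 on deposited FPKM and with no filter, and 1 with the trimmed sum, a pseudocount of 0.1, no trend and voom.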
